A study of Mus musculus with 7 samples.

Results

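The TALE homeobox genes studied here are 9 genes, most of them for partner proteins of HOX transcription factors: Meis1, Meis2, Meis3, Pbx2, Pbx3, Pbx4, Pknox1, Pknox2 and Tgif1. They were chosen by symbol from the 34305 rows of a table of RNA counts, and all 9 were present and passed the filter on low counts. The RNA came from mouse haematopoietic stem and progenitor cells (HSPCs), the immature cells of the bone marrow that give rise to blood. One group of 3 libraries came from cells transduced with MN1, a co-regulator of transcription known to cause myeloid leukaemia when overexpressed. A second group of 3 came from cells transduced with MN1pQdel, which is MN1 without its polyglutamine stretch, and 1 library, noTD, came from cells that were not transduced, although its source field reads the same as that of the others. All cells grew with interleukin-3, interleukin-6 (10 ng/mL) and stem cell factor (20 ng/mL). Transduced cells were sorted and kept for 7 to 9 days before RNA was taken, and the labels give the same time for noTD. For mouse strain, age, vector and promoter the labels have no entry. The samples of a transduced group are called independent, with no word on whether they came from separate animals, so p-values reflect only how these samples vary.

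TALE stands for three-amino-acid loop extension: the DNA-binding homeodomain of these proteins carries 3 residues more than that of HOX proteins, between its first and second helix. PBX proteins bind DNA next to HOX proteins and sharpen their choice of site. MEIS and PKNOX proteins bind PBX through a domain outside the homeodomain and join the complex, while TGIF proteins act mostly as repressors. In blood, Meis1 is needed by stem cells and, together with Hoxa9, drives myeloid leukaemia in mice, and Meis1 levels fall as cells mature.

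The stretch of the coding sequence that holds the added residues shows how the genes are related. It is given for the 3 MEIS genes and for 1 gene of each other type, from GENCODE M21 transcripts on GRCm38, 5′ to 3′ on the coding strand, with the 9 bases of the added residues in capitals.
Meis1: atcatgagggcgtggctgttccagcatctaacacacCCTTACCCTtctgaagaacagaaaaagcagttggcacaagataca
Meis2: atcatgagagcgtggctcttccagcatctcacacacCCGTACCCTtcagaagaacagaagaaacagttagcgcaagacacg
Meis3: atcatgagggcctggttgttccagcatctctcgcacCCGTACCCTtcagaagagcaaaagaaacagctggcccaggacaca
Pbx2: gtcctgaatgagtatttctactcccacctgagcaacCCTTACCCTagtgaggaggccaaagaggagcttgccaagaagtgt
Pknox1: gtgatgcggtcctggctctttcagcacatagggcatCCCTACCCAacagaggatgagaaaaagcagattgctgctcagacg
Tgif1: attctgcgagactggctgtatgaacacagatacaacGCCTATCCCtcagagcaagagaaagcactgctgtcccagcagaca

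Over these 81 bases Meis1 and Meis2 were identical at 86.4% of positions, and Meis1 and Meis3 at 81.5%. Meis1 and Pbx2 shared 54.3%, Meis1 and Pknox1 64.2%, and Meis1 and Tgif1 56.8%. The stretch spans the junction of exons 8 and 9 in the longest Meis1 transcript (chr11:18905718-18941691, intron included), in that of Meis2 (chr2:115921701-116000163) and in that of Meis3 (chr7:16182436-16183838). In Pbx2 it lies within exon 5 (chr17:34594619-34594699).

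Likeness of this degree seldom ran to long exact matches, which bears on how well reads can be told apart. The longest identical run in the stretch was 11 bases between Meis1 and Meis2 and, the longest of any pair, 20 bases between Meis2 and Meis3, against reads of 150 bases. Of all 7607 different runs of 31 bases in Meis1 transcripts, 2 also occurred in another of the 9 genes, as did 4 of 4238 in Meis2 transcripts. Meis3, Pbx4, Pknox1, Pknox2 and Tgif1 shared 0 such runs with any other gene of the annotation. Meis1 shared 13.4% of its runs with other genes, nearly all with Gm37818, an unclassified gene that overlaps it on the same strand and has no row in the table, and Pbx2 shared 5.83%, nearly all with Gpsm3, which overlaps it on the same strand.

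Library totals ran from 38210660 to 67728658 counts. Mn1 itself stood at 286 to 314 CPM (counts normalised for depth, with library sizes scaled by TMM) in MN1, at 403 to 730 CPM in MN1pQdel and at 34.0 CPM in noTD. It was lower in MN1 than in MN1pQdel by a log2 fold change of -1.05 (SE 0.23, edgeR adjusted p = 0.0282), so the level of Mn1 and the presence of the polyglutamine stretch differ together and cannot be told apart. Whether these counts include the construct, the endogenous gene or both cannot be told from the table, so they are not a measure of construct dose. MN1pQdel replicate 2 stood apart from its group, with summed eosinophil markers at 235 CPM against 3380 and 3658 CPM in the other libraries of the group.

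With MN1 the TALE genes moved in different directions. Meis1, Meis2 and Pknox1 were higher than in MN1pQdel, Pbx2 was lower, and Meis3, Pbx3, Pbx4, Pknox2 and Tgif1 did not pass the test (edgeR quasi-likelihood test of 3 against 3 libraries, Benjamini-Hochberg adjusted p under 0.05 over all genes tested). Thus 4 of 9 were called, where 17.2% of the 14808 genes tested were. Of these, 3 were higher, where 6.08% of all genes tested were called higher, and 1 was lower, where 11.1% of all genes were. The median log2 fold change of the 9 was 0.52, against -0.01 over all genes tested. Levels in the groups did not overlap for 5 of the 9, where they did not overlap for 43.6% of all genes tested. Meis1, Meis2, Pbx4 and Pknox1 lay wholly higher, as 21.9% of all genes did, and Pbx2 wholly lower, as 21.7% did.

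**Figure D1:**
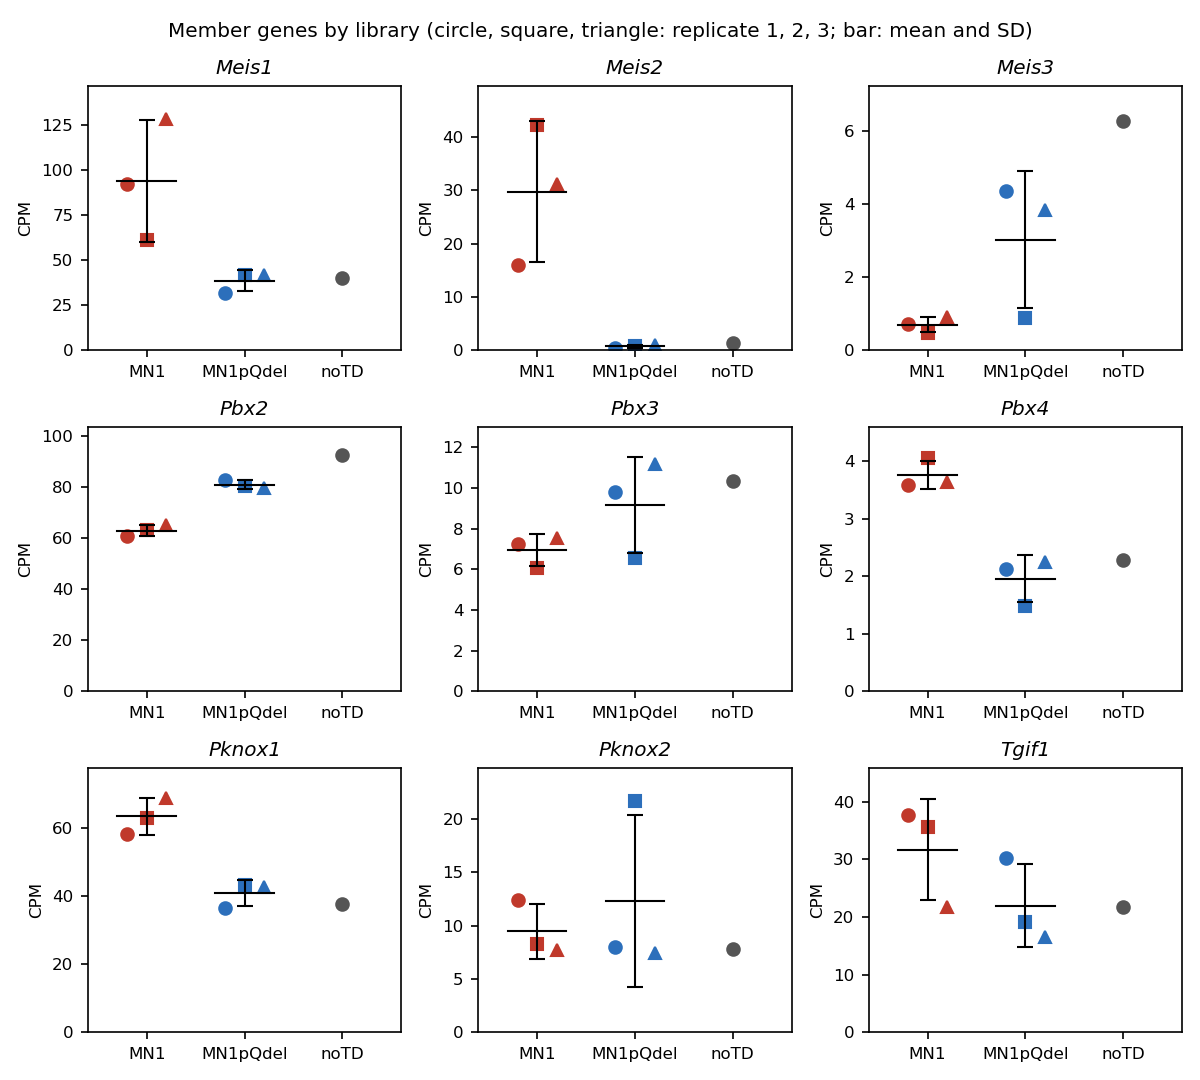
CPM of each TALE gene (vertical axes, each from 0) in the MN1, MN1pQdel and noTD libraries; each marker is 1 library, circles, squares and triangles are replicates 1, 2 and 3 (the noTD circle is its only library), and lines with bars give the mean and SD of 3. Meis2 stands at 15.97 to 42.2 CPM in MN1 and under 1 CPM in each MN1pQdel library, while Pknox2 has 1 high library, MN1pQdel replicate 2 at 21.7 CPM.

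Meis2 (chr2:115863064-116065839, minus strand, protein coding) changed most among the 9. It had 15.97, 42.2 and 31.1 CPM in MN1 replicates 1 to 3 and 0.469, 0.858 and 0.947 CPM in MN1pQdel. All MN1 libraries lay far above all MN1pQdel libraries, and the noTD library, at 1.47 CPM, lay with the latter. The fold was 39.3, a log2 fold change of 5.30 (SE 0.48, edgeR adjusted p = 0.00497), which placed Meis2 at rank 38 of the 14808 genes by p and at rank 62 by size. It kept the call in 6 of 6 fits with 1 library left out, at log2 fold changes from 4.96 to 5.60. Meis2 is better known from limb, heart and brain development than from blood. The 10 listed stromal and endothelial markers summed to 169 to 196 CPM in MN1, 175 to 345 CPM in MN1pQdel and 305 CPM in noTD. Of the 6 that were tested 1 was higher and 1 lower in MN1, with a median log2 fold change of 0.56, which has the opposite sign to the difference of the sums, and their part in the Meis2 values was not tested.

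Meis1 (chr11:18879817-19018985, minus strand, protein coding) was, per kilobase of transcript, the most abundant MEIS gene in 6 of 7 libraries. The exception was MN1 replicate 2, where Meis2 had 11.3 and Meis1 8.09 CPM per kilobase. Meis1 stood at 92.0, 61.1 and 128 CPM in MN1 replicates 1 to 3 and at 31.9, 41.7 and 42.0 CPM in MN1pQdel, without overlap, and at 40.1 CPM in noTD. The MN1 libraries varied more, with an SD of 35.8% of the mean against 15.0% in MN1pQdel. Meis1 was 2.42-fold higher in MN1, a log2 fold change of 1.27 (SE 0.27, edgeR adjusted p = 0.0264). In the 6 fits that leave out 1 library, log2 fold changes lay between 0.99 and 1.51. The call of Meis1 was lost without MN1 replicate 1 (edgeR adjusted p = 0.0815), MN1 replicate 3 (0.0749), MN1pQdel replicate 1 (0.106) or MN1pQdel replicate 3 (0.0662). Within MN1 the libraries ranked differently for the pair of genes: replicate 2 was the lowest for Meis1 and the highest for Meis2. That library was also the lowest of the MN1 group on megakaryocyte markers, a lineage in which Meis1 is known to be expressed, at a sum of 316 CPM against 933 and 702 CPM. It was the lowest as well on mast cell markers (1684 CPM against 3946 and 3596 CPM), basophil markers (1509 CPM against 3655 and 3210 CPM), eosinophil markers and monocyte markers. Megakaryocyte markers reached 1477, 549 and 1482 CPM in MN1pQdel, where Meis1 was lower, and the part of these markers in the Meis1 values was not tested.

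Meis3 (chr7:16175090-16186504, plus strand, protein coding) went the other way without passing the test. It had 0.733, 0.486 and 0.906 CPM in MN1 and 4.35, 0.899 and 3.84 CPM in MN1pQdel replicates 1 to 3. MN1pQdel replicate 2 lay inside the MN1 range, whereas the other MN1pQdel libraries lay nearer to noTD, at 6.28 CPM. The log2 fold change was -2.11 (SE 0.61, edgeR adjusted p = 0.0575). Meis3 passed with the replicate number as a block (log2 fold change -1.90, edgeR adjusted p = 0.0326), with DESeq2 (-2.10, adjusted p = 0.00550), without MN1pQdel replicate 2 (-2.52, edgeR adjusted p = 0.00249) and without the replicate 2 pair (-2.29, edgeR adjusted p = 0.00693). It was further from passing with limma-voom (-1.85, adjusted p = 0.109) and without any other single library, at edgeR adjusted p from 0.129 to 0.183. Eosinophil markers summed to 13.3 to 21.4 CPM in MN1 and 235 CPM in MN1pQdel replicate 2, above the MN1 range. They reached 3380 and 3658 CPM in the other MN1pQdel libraries and 3854 CPM in noTD. MN1pQdel replicate 2 lay inside the MN1 range on mast cell markers (3015 CPM against 1684 to 3946 CPM) and basophil markers (3366 CPM against 1509 to 3655 CPM). The same held for megakaryocyte markers (549 CPM against 316 to 933 CPM) and stromal and endothelial markers (175 CPM against 169 to 196 CPM). On these 4 lists the other MN1pQdel libraries and noTD lay above the MN1 range. The part of any of these markers in the Meis3 values was not tested. In such bulk RNA, fewer cells of a type and less RNA per cell cannot be told apart.

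**Figure D2:**
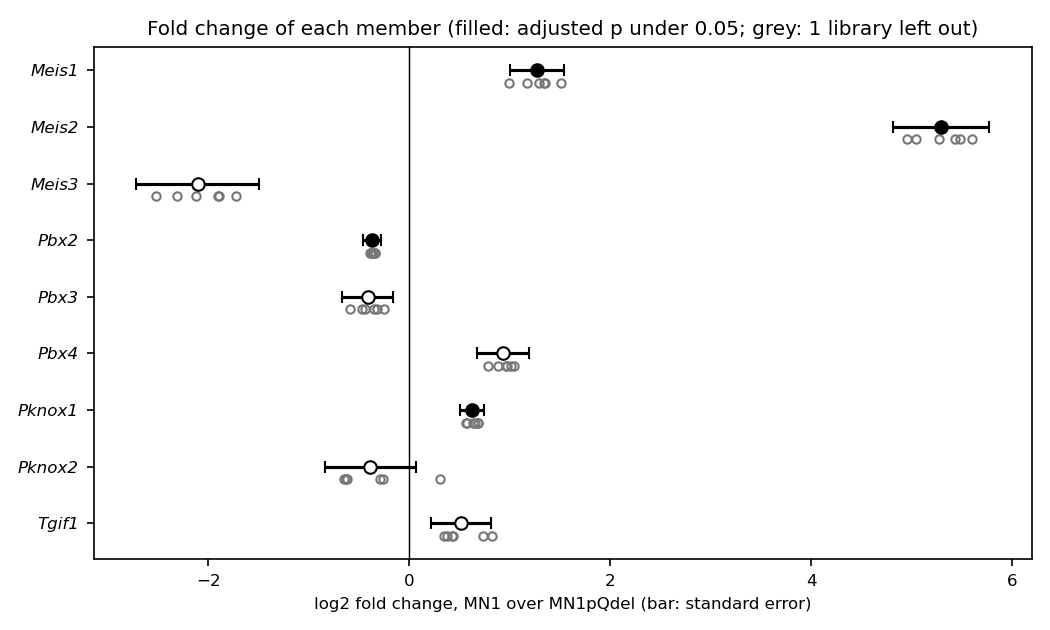
Log2 fold change of each TALE gene, MN1 over MN1pQdel (horizontal axis), with the standard error as a bar; filled points passed an adjusted p of 0.05, and open grey circles give the 6 fits with 1 library left out. Meis2 lies at 5.30 and Meis3 at -2.11, and Pknox2 crosses 0 in 1 of the 6 fits, where it reached 0.30.

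Pbx2 (chr17:34591266-34597400, plus strand, protein coding), a HOX partner expressed in most tissues, was lower in MN1 by a small and tight margin. It stood at 60.7, 63.0 and 65.1 CPM in MN1 and at 82.8, 80.3 and 79.5 CPM in MN1pQdel, without overlap, and at 92.4 CPM in noTD. The SD was 3.51% of the mean in MN1 and 2.12% in MN1pQdel, the least of the 9 genes in each group. The log2 fold change was -0.37 (SE 0.09, edgeR adjusted p = 0.0356). The call depended on scaling and filter: with library totals in place of TMM, which moved the median of all genes from -0.01 to 0.19, the log2 fold change was -0.17 (edgeR adjusted p = 0.228), and with no low-count filter it was -0.36 (edgeR adjusted p = 0.0854). With 1 library left out Pbx2 was called in 1 fit, the one without MN1pQdel replicate 2 (edgeR adjusted p = 0.0215), and not in the other 5, at edgeR adjusted p from 0.0886 to 0.143. Gpsm3, which shares bases with Pbx2, was lower in MN1 by more, at 41.4 to 50.1 CPM against 89.3 to 151 CPM (log2 fold change -1.46, SE 0.21, edgeR adjusted p = 0.00937), and its part in the Pbx2 counts was not tested.

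The other PBX genes stood at lower levels per kilobase and did not pass. Pbx4 (chr8:69832491-69872292, plus strand), known best from the testis, had 3.59, 4.05 and 3.64 CPM in MN1 and 2.13, 1.49 and 2.24 CPM in MN1pQdel. The groups did not overlap, and the log2 fold change was 0.93 (SE 0.26, edgeR adjusted p = 0.0526). Pbx4 passed with DESeq2 (adjusted p = 0.00275), with limma-voom (adjusted p = 0.0476), with edgeR on library totals (adjusted p = 0.0298) and with edgeR without MN1pQdel replicate 2 (adjusted p = 0.0361). It did not pass with RLE scaling (edgeR adjusted p = 0.0505), with no low-count filter (0.0703), with the replicate block (0.0538) or without the replicate 2 pair (0.0744). Without any other single library its edgeR adjusted p lay from 0.0983 to 0.153. Pbx3 (chr2:34171457-34373142, minus strand), a cofactor of HOXA9 in leukaemia, had 7.23, 6.06 and 7.56 CPM in MN1 and 9.80, 6.58 and 11.2 CPM in MN1pQdel. MN1pQdel replicate 2 again lay inside the MN1 range, and the log2 fold change was -0.41 (SE 0.25, edgeR adjusted p = 0.265).

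Pknox1 (chr17:31564734-31607693, plus strand, protein coding), also called Prep1, competes with MEIS proteins for PBX. It stood at 58.1, 62.9 and 68.8 CPM in MN1 and at 36.3, 43.3 and 42.5 CPM in MN1pQdel, without overlap, and at 37.5 CPM in noTD. The fold was 1.54, a log2 fold change of 0.63 (SE 0.12, edgeR adjusted p = 0.0206). With 1 library left out it ran from 0.56 to 0.69 and was called only without MN1pQdel replicate 2 (edgeR adjusted p = 0.00721). The call was lost without MN1 replicate 1 (edgeR adjusted p = 0.0611), 2 (0.0775) or 3 (0.0876) and without MN1pQdel replicate 1 (0.0796) or 3 (0.0532). Its paralog Pknox2 (chr9:36890982-37147407, minus strand) did not pass. Pknox2 had 12.4, 8.26 and 7.77 CPM in MN1 and 7.99, 21.7 and 7.43 CPM in MN1pQdel. The log2 fold change of Pknox2 was -0.39 (SE 0.45, edgeR adjusted p = 0.555), and without MN1pQdel replicate 2, the highest library, it turned to 0.30.

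Tgif1 (chr17:70844205-70853546, minus strand, protein coding), a repressor in TGF-beta signalling, had 37.7, 35.6 and 21.7 CPM in MN1 and 30.1, 19.2 and 16.6 CPM in MN1pQdel. The groups overlapped and the log2 fold change was 0.52 (SE 0.30, edgeR adjusted p = 0.249). In each group replicate 1 was the highest and replicate 3 the lowest, and within same-numbered pairs MN1 was higher by 0.32, 0.89 and 0.39 on the log2 scale. With the replicate block the edgeR adjusted p was 0.0616.

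Set against the untransduced library, which has no replicate and so allows no test, the group mean of MN1 lay further away than that of MN1pQdel for 8 of the 9 genes, all but Pknox2. The share of all genes for which this held was not counted, so it cannot be read as particular to the TALE genes. Among all genes, too, larger shares lay at least 2-fold from noTD in MN1 than in MN1pQdel. In MN1 the group means of Meis2 and Meis1 were at least 2-fold above noTD and that of Meis3 at least 2-fold below it, so 2 of 9 genes were higher, where 10.9% of 16216 genes were, and 1 was lower, where 17.0% were. In MN1pQdel 0 of 9 were higher, where 1.89% of all genes were, and Meis3 was the 1 gene lower, where 4.29% were. The comparisons share the noTD library. On the log2 CPM scale with a prior count of 2, Meis2 differed from noTD by 3.40, 4.80 and 4.36 in MN1 and by -1.56, -0.75 and -0.61 in MN1pQdel. The 53 noTD counts of Meis2 allow 1.103 to 1.93 CPM (95% exact Poisson interval, counting error only). The 3 MN1pQdel values lie below that interval but rest on 29, 42 and 38 counts, with counting error of their own. No difference between MN1pQdel and noTD can be read from this. Meis1 differed by 1.20, 0.61 and 1.68 in MN1 and by -0.33, 0.06 and 0.07 in MN1pQdel. The mean for Meis1 was 1.16 and fell below 2-fold without MN1 replicate 3, the highest library, at 0.90. Meis3 differed by -3.03, -3.58 and -2.74 in MN1 and by -0.53, -2.75 and -0.70 in MN1pQdel, where replicate 2 set the group mean of -1.32. Without that library the MN1pQdel mean for Meis3 was -0.61.

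The remaining genes lay within 2-fold of noTD in each group mean. Pbx2 was 0.56 below noTD in MN1 and 0.19 below it in MN1pQdel on the log2 scale, and all 6 transduced libraries lay under the noTD value. Pknox1 was 0.75 above noTD in MN1 and 0.11 above it in MN1pQdel. Pbx4 was 0.71 above noTD in MN1, with 3 of 3 libraries higher, and 0.24 below it in MN1pQdel, with 3 of 3 lower. Pknox2 lay within 0.1 of noTD in 4 of 6 transduced libraries and 1.47 above it in MN1pQdel replicate 2.

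**Figure D3:**
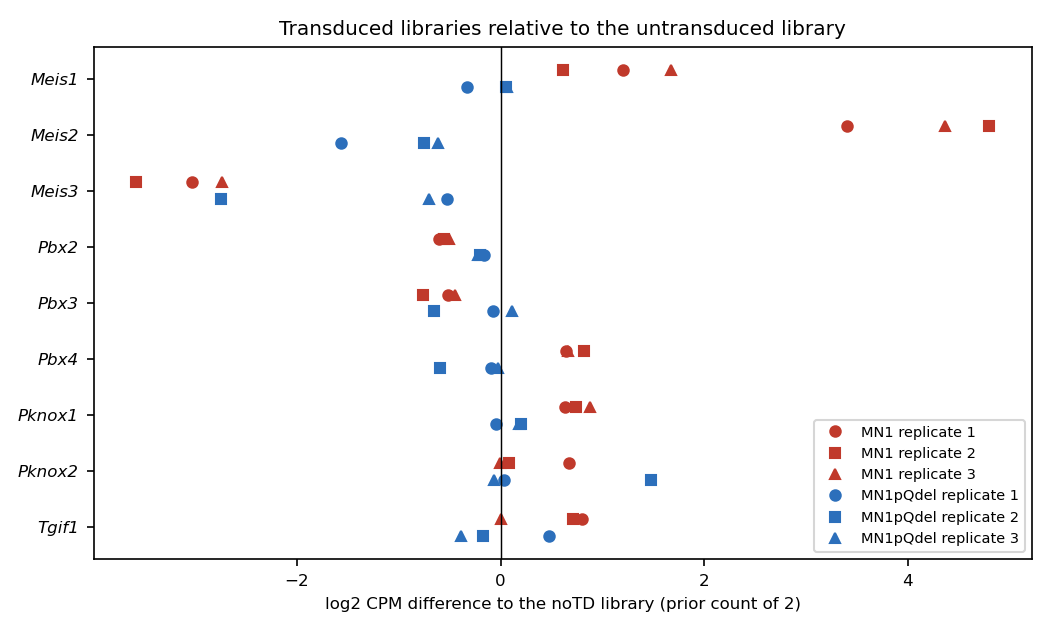
Difference of each transduced library to the noTD library in log2 CPM with a prior count of 2 (horizontal axis) for the 9 TALE genes; red is MN1, blue is MN1pQdel, and marker shapes are replicates. Meis2 separates the groups most, at 3.40 to 4.80 in MN1 and -1.56 to -0.61 in MN1pQdel, and the blue square of Meis3, MN1pQdel replicate 2, lies among the red markers at -2.75.

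Levels of different genes were compared per kilobase of the longest protein-coding transcript, which is an approximation because the table does not say which transcripts the cells made. In MN1 the order was Pbx2 (20.5 ± 0.720 CPM per kilobase, SD, n = 3), Tgif1 (18.5 ± 5.07), Pknox1 (14.9 ± 1.26), Meis1 (12.4 ± 4.45), Meis2 (8.001 ± 3.539), Pknox2 (2.61 ± 0.705), Pbx3 (2.54 ± 0.288), Pbx4 (2.41 ± 0.160) and Meis3 (0.385 ± 0.115). Neighbours in this order from Pbx2 to Meis2 and from Pknox2 to Pbx4 overlapped in their library ranges, whereas Meis2 stood above Pknox2 and Meis3 below Pbx4 without overlap. In MN1pQdel Pbx2 (26.4 ± 0.558 CPM per kilobase, SD, n = 3) again led, and Meis2 was last at 0.204 ± 0.0684. Meis2 was also last in noTD, at 0.396 CPM per kilobase. With the mean transcript length in place of the longest, Tgif1 and Pknox1 changed places in every group and the other 7 genes kept their ranks.

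Ratios of genes within a library do not depend on scaling. The count ratio of Meis2 to Meis1 was 0.174, 0.690 and 0.242 in MN1 and 0.0147, 0.0206 and 0.0226 in MN1pQdel, with 0.0368 in noTD. The MN1 values were all higher, by 4.02 on the log2 scale (two-sided exact permutation test p = 0.1, the smallest that 3 against 3 libraries allow). Meis1 to Pknox1 differed by 0.59 (exact permutation p = 0.2), with MN1 replicate 2 at 0.971 inside the range of the MN1pQdel libraries. Pbx3 to Pbx2 differed by -0.01 (exact permutation p = 0.9), with groups that overlapped and SDs of 0.17 and 0.40, and it turned positive when MN1 replicate 2 (0.09), MN1pQdel replicate 1 (0.04) or MN1pQdel replicate 3 (0.16) was left out. Adjusted over these 3 ratios by Benjamini-Hochberg the p-values were 0.3, 0.3 and 0.9.

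The HOX genes whose proteins work with the TALE proteins were read from the same fit. Of 11 HOXA genes 9 were tested, and 8 of these were higher in MN1 and 0 lower, with a median log2 fold change of 3.73. Hoxa11 stood at 14.6, 33.1 and 19.6 CPM in MN1 and Hoxa10 at 20.9, 40.9 and 36.5 CPM, with each MN1pQdel library under 1.5 CPM for either gene. Like Meis2, Hoxa11 and Hoxa10 were lowest in replicate 1 and highest in replicate 2 of the MN1 group, whereas Hoxa3 and Hoxa6 were highest in replicate 3. Flt3 and Pbx4 had the same order as Meis2. The share of all genes with that order was not counted, so it cannot be read as particular to these genes. Hoxa3 and Hoxa6 had low counts, at up to 1.85 CPM in MN1 and at most 0.0817 CPM in MN1pQdel. The HOXA count was 1 without MN1pQdel replicate 1, 4 without MN1pQdel replicate 3 or any single MN1 replicate, and 9 without MN1pQdel replicate 2. Of 10 HOXB genes 2 were tested and 0 were called by edgeR, with 0 at an unadjusted p under 0.05 and 0 by DESeq2 or limma-voom. The median log2 fold change of the 2 was -0.71, and without MN1pQdel replicate 2 edgeR called 1 HOXB gene lower. Hoxb4, a factor that expands stem cells, stood at 4.21 to 6.25 CPM in MN1 and 4.16 to 8.50 CPM in MN1pQdel, a log2 fold change of -0.36 (SE 0.32, edgeR adjusted p = 0.438). No HOXC or HOXD gene passed the filter.

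Of 8 other TALE genes only Tgif2, the paralog of Tgif1, passed the filter. Tgif2 (chr2:156840007-156855570, plus strand) had 18.7, 22.4 and 18.0 CPM in MN1, 3.90, 8.56 and 2.64 CPM in MN1pQdel and 3.64 CPM in noTD. The MN1 libraries lay above all others, and the log2 fold change of Tgif2 was 1.96 (SE 0.43, edgeR adjusted p = 0.0281). Tgif2 kept its call in 1 of 6 fits with 1 library left out, the one without MN1pQdel replicate 2 (edgeR adjusted p = 0.00111), and missed it without any other library at edgeR adjusted p from 0.0558 to 0.115.

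Among 20 genes for proteins that bind or work with PBX, MEIS and TGIF proteins, 3 were lower in MN1 and 0 higher, with a median log2 fold change of 0.11. Over all genes tested 11.1% were lower and 6.08% higher, so the count of lower genes is near the background. Pbxip1, whose product binds PBX proteins and keeps them from DNA, stood at 69.9, 63.2 and 72.6 CPM in MN1 and 215, 121 and 183 CPM in MN1pQdel, without overlap, and at 223 CPM in noTD. Its log2 fold change was -1.35 (SE 0.21, edgeR adjusted p = 0.0121), and Pbxip1 lost the call without MN1 replicate 1 (edgeR adjusted p = 0.0542), 2 (0.0573) or 3 (0.0558). The acetyltransferase gene Ep300 (log2 fold change -0.45) and the TGF-beta mediator gene Smad2 (-0.42) were lower by less, and lost their calls with library totals (edgeR adjusted p = 0.190 and 0.167). Each was called in 1 of 6 fits with 1 library left out, the one without MN1pQdel replicate 2, with edgeR adjusted p up to 0.159 for Ep300 and 0.148 for Smad2 in the other 5. With the replicate block this list had 2 genes higher and 6 lower.

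Of 18 genes reported elsewhere to lie downstream of MEIS1 and HOXA9, 5 were higher and 3 lower in MN1, with a median log2 fold change of 0.29. Over all genes tested 6.08% were higher and 11.1% lower, and the count of lower genes is near that background. Flt3, a cytokine receptor found on early progenitors, had 64.4, 111 and 86.7 CPM in MN1 and 1.28, 6.98 and 0.249 CPM in MN1pQdel. Hlf, a stem cell factor, had 68.3, 132 and 153 CPM in MN1 and 5.92, 24.3 and 3.14 CPM in MN1pQdel, and Sox4 had 62.8, 92.2 and 136 CPM in MN1 and 7.49, 30.3 and 6.06 CPM in MN1pQdel. MN1pQdel replicate 2 was the highest of its group for each of these 3 genes. Id2, an inhibitor of differentiation factors, was lower in MN1 by a log2 fold change of -1.76 (SE 0.43, edgeR adjusted p = 0.0365). Hlf, Sox4 and Id2 kept their calls with edgeR in 1 of 6 fits with 1 library left out (without MN1pQdel replicate 2) and Flt3 in 2 (without MN1pQdel replicate 2 or 3), with edgeR adjusted p up to 0.122, 0.130, 0.117 and 0.101 in the others. The count of this list fell to between 1 and 3 higher and 1 lower without any single library other than MN1pQdel replicate 2.

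**Figure D4:**
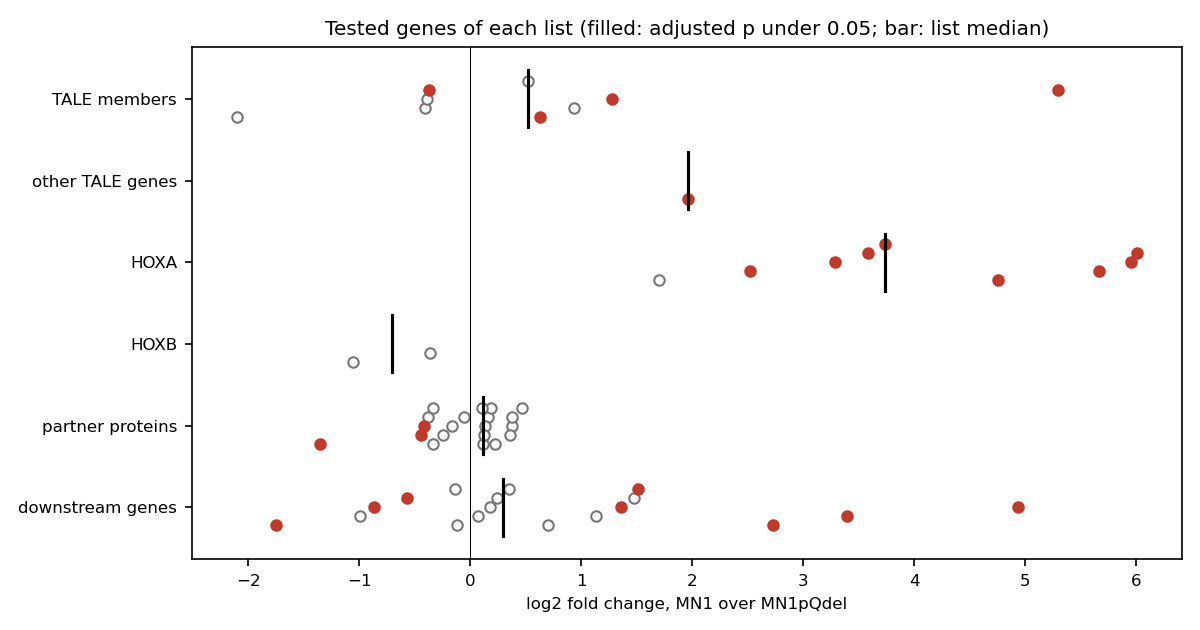
Log2 fold change, MN1 over MN1pQdel (horizontal axis), of every tested gene of each list; filled points passed an adjusted p of 0.05, open points did not, the bar is the list median, and the vertical position within a list carries no value. The TALE genes spread from -2.11 to 5.30 around a median of 0.52, whereas the 9 HOXA genes all lie above 0 with a median of 3.73.

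As a description, the genes of at least 5 CPM on average whose log2 CPM over the 7 libraries was most like that of each called TALE gene were listed among 9841 genes. The 7 libraries share their group structure, so any gene that separates MN1 from the rest scores high. For Meis1 they were St8sia1, Etv5, Agpat4 and Psen2 (Pearson r from 0.984 to 0.994), and for Meis2 Sppl3, Ubac1, Fam114a2, Smad1 and Pigf (r from 0.984 to 0.993). For Pknox1 they were Apobec3, Rpusd3, Gtf2h3, Tshz1 and Slc39a10 (r from 0.993 to 0.999), and for Pbx2 Tlr2, Fbxl5, Ptpn6, Zdhhc7 and Zkscan6 (r from 0.989 to 0.993). The lists have no gene in common. Between the called TALE genes themselves, Meis2 followed Pknox1 at r = 0.955 and Meis1 at r = 0.865. Meis1 followed Pknox1 at r = 0.918, and Pbx2 ran against Pknox1 at r = -0.923. Pairs with genes that were not called reached similar values, such as Meis3 with Pbx3 (r = 0.948) and Meis2 with Pbx4 (r = 0.916).

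Markers of maturing cells were present beside those of progenitors. Summed over 10 HSPC markers, of which 3 were called higher in MN1 and 0 lower, levels overlapped between the groups and were 1116 to 1473 CPM in MN1, 607 to 1180 CPM in MN1pQdel and 1175 CPM in noTD. Neutrophil markers, 10 of 10 called lower, summed to 4012 to 7475 CPM in MN1, 25044 to 34257 CPM in MN1pQdel and 35713 CPM in noTD. Mast cell markers, 4 of 9 tested called lower, overlapped between the groups and summed to 1684 to 3946 CPM in MN1, 3015 to 17682 CPM in MN1pQdel and 15602 CPM in noTD, with MN1pQdel replicate 2 the lowest of its group. Monocyte and macrophage markers, 6 of 10 called lower, summed to 489 to 520 CPM in MN1, 928 to 1079 CPM in MN1pQdel and 1225 CPM in noTD. The part of these markers in the values of the TALE genes was not tested.

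RefSeq windows (GRCm38.p6) of the 250 bases before a transcript start were at hand for 6 of the 9 genes. Some of these starts lie inside the gene, so that 170 bases of the Meis2 window, 160 of the Meis3 window, 133 of the Pbx4 window and all 250 of 1 Tgif1 window fall in annotated exons, and the Pbx2 window lies within the gene span given above. The windows were searched on both strands for TGACAG, the core bound by MEIS, PKNOX and TGIF proteins, for TGATNNAT, bound by PBX with HOX, and for TGATTGAC, bound by PBX with MEIS or PKNOX. These letters occur in 15.9%, 7.68% and 0.691% of 32851 such windows. The windows of Meis1, Meis2, Meis3, Pbx2 and Pbx4 held none of them, and 1 of 5 windows of Tgif1 held TGATTTAT, a match to the second motif. A match or its absence in these windows is a description of letters only.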

How the data were processed

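Poly(A) RNA of 7 libraries was sequenced from both ends at 150 bases. The authors deposited 1 table that holds, for each gene symbol, estimated counts without normalisation, of which 32.5% were fractional (tolerance 1e-06). The submitters' processing notes name kallisto, DESeq2 and GRCm38. Versions, transcript index and strand setting are not given, so overlapping and antisense genes cannot be separated. Symbols turned into calendar dates fill 26 rows (0.172% of counts), which were tested and left unnamed.

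Estimated counts were rounded, filtered with filterByExpr and scaled by TMM. MN1 was compared with MN1pQdel, 3 against 3 libraries, with the quasi-likelihood test of edgeR 4.0.16 under R 4.3.3 and group as the only term. P-values were adjusted by Benjamini-Hochberg over 14808 genes, with a threshold of 0.05. CPM used TMM over 7 libraries. The noTD library entered no test; log2 CPM differences to it (prior count of 2) covered 16216 genes that passed the filter over all groups. Alternatives were DESeq2 1.42.0, limma-voom (limma 3.58.1), RLE scaling, library totals, no filter, the replicate number as a block, each library left out and, chosen after seeing the data, the replicate 2 pair left out. Of these fits, only the edgeR fit with TMM, with and without the block, was run on simulated counts. The simulated counts held no pair effect and no outlying library, unlike these data.

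Deviations from group means correlated at 0.368, 0.259 and 0.320 between same-numbered libraries and from -0.282 to -0.0602 between others. Taking off the group means tends to make the latter negative once the former are positive, so the latter are not separate evidence. On the positive correlations, which come from the data and not the labels, same-numbered libraries were treated as pairs in the block. Coordinates, lengths and homeobox sequences came from GENCODE M21. Members and gene lists were chosen with earlier results of these data known, and every member is named. From each list up to 4 called genes of largest fold change were named, or the most abundant where none was called, and for each called member the 5 genes most like it, leaving out predicted and clone-named genes; 1 gene so chosen for Meis1 is not reported here. Gpsm3 was named after its values were seen.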

Additional observations from a re-analysis of the deposited data

How the results depend on the processing

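Of the TALE genes, Meis2 kept its direction and call in every alternative run, and Meis1 and Pknox1 in the 6 that use all libraries. With the replicate number as a block Meis3 gained a call (log2 fold change -1.90), and the block changed no other call of a named gene. Genes called higher, 901 in the chosen fit, numbered 1906 with DESeq2, 1847 with library totals, 2022 with the block and, on leaving out the replicate 2 pair, 2630. Genes called lower, 1643 in the chosen fit, numbered 2523 with the block and 2617 without the pair. TALE genes called lower, 1 in the chosen fit, numbered 2 with DESeq2, with the block and without the pair, and 0 with library totals and with no filter. Of the partner genes, 0 higher and 3 lower in the chosen fit, 2 were higher and 6 lower with DESeq2, 2 and 6 with the block, 2 and 1 with library totals, 1 higher with RLE scaling, 1 lower with no filter and 3 higher without the pair. In the list of other TALE genes 1 was lower with no filter and 1 without the pair, where 1 HOXB gene was lower too; all were 0 in the chosen fit. Without the pair Pknox2 turned to 0.42 and Hoxb4 to 0.053. With a prior count of 0.5, 2 TALE genes in place of 1 were at least 2-fold lower in MN1pQdel than in noTD.

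Leaving out 1 library moved counts most. Genes called ranged from 95 (without MN1pQdel replicate 1) to 3146 higher and from 378 (without MN1 replicate 3) to 3248 lower, the highest counts both without MN1pQdel replicate 2. TALE genes ranged from 1 to 4 higher and 0 to 2 lower, other TALE genes from 0 to 1 higher and 0 to 1 lower, HOXA genes from 1 to 9 higher and HOXB genes from 0 to 1 lower. Partner genes ranged from 0 to 4 higher and 0 to 6 lower, and downstream genes from 1 to 7 higher and 1 to 3 lower. Pknox2 ranged from -0.65 to 0.30 and the ratio of Pbx3 to Pbx2 from -0.23 to 0.16. Against noTD, 1 to 2 TALE genes were at least 2-fold higher in MN1 and 1 to 2 lower in MN1pQdel. Fits with 1 library left out have fewer samples, and the cause of the other changes was not tested. With 3 libraries a group, 1 untransduced library and no record of animals, small differences such as that of Pbx2 are at the limit of what these data can show. Meis3 in MN1 and Meis2 in MN1pQdel rest on at most 43 counts per library.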
